A study of Mus musculus with 4 samples.

Results

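DNA methylation was described at 10 genes of spermatogonial differentiation, the step at which dividing sperm precursors leave the self-renewing state and move towards meiosis: Kit, Rarg, Crabp1, Stra8, Sohlh1, Sohlh2, Neurog3, Dmrt1, Dmrtb1 and Uchl1. They were chosen by name and not by a filter on their methylation, though with earlier results of these data known. They stand among 21631 protein-coding genes on the chromosomes used. Each locus is the annotated gene span in mm10, found by symbol, with 10 kb on either side. All 10 were found. The cells were germline stem (GS) cells, cultures that derive from spermatogonial stem cells of mouse testis. They are kept dividing with GDNF and FGF2, the growth factors that sustain self-renewal. Both groups were labelled wild type and came from Green mice, which carry the EGFP transgene Tg14(act-EGFP)OsbY01. The strain label names C57BL/6 as well as a DBA/2 background. The groups differed in time in culture, approximately 5 months for 5M-GS and 60 months for 60M-GS, with 2 replicates of each. Values given in pairs below have 5M-GS first and 60M-GS second, and differences are 60M-GS minus 5M-GS. Each age is given as 1 table that pools its 2 replicates, so no spread between replicates can be measured, and every test compares 2 pooled libraries rather than culture ages.

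The pathway works as follows. Retinoic acid, made from vitamin A, binds nuclear receptors such as RARG and drives undifferentiated spermatogonia into differentiation, and Stra8 is the best known gene it switches on. SOHLH1 and SOHLH2 are transcription factors needed for this step and for expression of Kit, the receptor for stem cell factor that marks differentiating spermatogonia, while DMRT1 holds spermatogonia back from premature meiosis. Methylation of CpGs at a promoter is one way a gene is kept off, but many silent genes have unmethylated promoters. The question set for these genes was whether those silent in self-renewing cells are held unmethylated or methylated. RNA was not analysed here, so which of them are silent in these cultures was not measured.

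Stretches around 4 annotated starts are shown because the results turn on them. Each runs from 250 bases before to 50 bases after the start, 5′ to 3′ along the gene, and comes from RefSeq on GRCm38.p6 (mm10), which held 11 starts of 9 of the 10 members. Capitals in Sohlh1 (chr2:25847199-25847498, minus strand) mark CACGTG, a form of the E-box, the motif class that basic helix-loop-helix factors bind. Capitals in Stra8 (chr6:34920698-34920997, plus strand) mark TACANTGT, which resembles the motif of DM-domain factors such as DMRT1. Capitals in Kit (chr5:75574737-75575036, plus strand) and Neurog3 (chr10:62132840-62133139, plus strand) mark CpGs.
Sohlh1: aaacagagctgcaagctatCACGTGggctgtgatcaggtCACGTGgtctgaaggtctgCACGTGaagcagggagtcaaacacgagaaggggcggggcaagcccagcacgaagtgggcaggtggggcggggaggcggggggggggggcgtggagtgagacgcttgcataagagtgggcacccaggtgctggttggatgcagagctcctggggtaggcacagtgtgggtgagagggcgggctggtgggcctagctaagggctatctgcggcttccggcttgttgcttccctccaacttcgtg
Stra8: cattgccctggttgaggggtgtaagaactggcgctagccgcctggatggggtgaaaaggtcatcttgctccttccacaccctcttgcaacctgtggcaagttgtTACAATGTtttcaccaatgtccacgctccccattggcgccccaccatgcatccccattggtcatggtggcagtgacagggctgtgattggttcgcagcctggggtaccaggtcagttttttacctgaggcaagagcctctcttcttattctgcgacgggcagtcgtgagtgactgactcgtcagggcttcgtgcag
Kit: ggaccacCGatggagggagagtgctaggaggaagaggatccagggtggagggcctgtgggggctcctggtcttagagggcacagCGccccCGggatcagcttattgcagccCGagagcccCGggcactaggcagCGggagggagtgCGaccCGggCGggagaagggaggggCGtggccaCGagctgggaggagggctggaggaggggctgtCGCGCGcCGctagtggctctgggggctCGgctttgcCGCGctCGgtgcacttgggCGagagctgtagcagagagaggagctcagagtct
Neurog3: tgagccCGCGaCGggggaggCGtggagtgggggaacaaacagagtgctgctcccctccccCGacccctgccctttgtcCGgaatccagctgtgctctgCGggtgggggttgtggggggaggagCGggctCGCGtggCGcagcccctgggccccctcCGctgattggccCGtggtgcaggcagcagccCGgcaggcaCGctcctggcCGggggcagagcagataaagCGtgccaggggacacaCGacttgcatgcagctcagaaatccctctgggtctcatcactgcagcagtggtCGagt

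Within these 300 bases, the 20 CpGs of Kit were methylated in 1.08% of 279 calls and 0.358% of 279, a call being 1 read's verdict on 1 CpG. The 10 CpGs of Stra8 were at 0.87% of 230 calls and 0.397% of 252. For Neurog3, 15 of the 19 CpGs had enough calls and were at 1.12% and 1.25%. All 3 were thus nearly free of methylation at both ages. Over 13 of its 14 CpGs, Sohlh1 was at 0% of 183 calls and 10.29% of 243.

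Most promoter windows of the differentiation genes were unmethylated in both tables, with those of Sohlh1 and the upstream start of Dmrtb1 as exceptions. The window of a promoter covered 1000 bp before and 500 bp after a start. Its level is the percent of methylated calls, taken over CpGs that had 5 or more calls in each table. Of 12 windows (Rarg and Dmrtb1 have 2 annotated starts each), 10 were under 10% in both tables (83.33%), against 60.40% of the 21159 windows of protein-coding genes. None of the 12 was over 80% in both, against 17.43% of those windows. Kit, Stra8, Sohlh2, Dmrt1, both starts of Rarg, Neurog3, Crabp1, Uchl1 and Dmrtb1 made up the 10, Dmrtb1 with its downstream start. A region was called when a two-sided Fisher's exact test gave an adjusted p (Benjamini-Hochberg, all regions of the kind) under 0.05 and the levels lay 20 or more points apart. Of the 12 windows, 0 gained and 0 lost methylation by this rule. Over all protein-coding windows 3.43% gained and 0.307% lost. At an adjusted p under 0.05 without the requirement on size, 4 windows differed (Stra8, Sohlh1, Sohlh2 and the upstream start of Dmrtb1). The share of all windows that pass on p alone was not counted, so whether 4 of 12 is unusual is not known. Since calls on 1 read are not independent, calls were also divided by the number of CpGs in the window. None of the 12 then differed, but the division leaves so few calls that differences of this size cannot pass, and it decides nothing here. In windows from 500 bp upstream to 250 bp downstream the difference of Sohlh2 turned from -1.34 to 0.812 points and that of Stra8 shrank from -2.09 to -0.03681. The median difference was -0.2298 points for the 12 windows and 0.1832 points for all protein-coding windows.

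**Figure D1:**
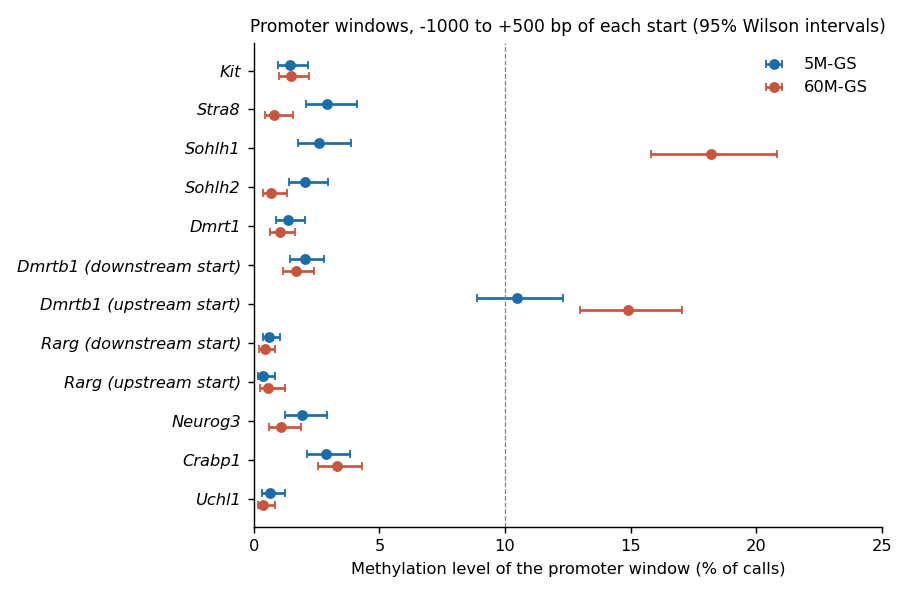
Methylation level (percent of calls, horizontal axis) of the 12 promoter windows in 5M-GS (blue) and 60M-GS (red), each with its 95% Wilson interval, which covers counting error only. The dashed line marks 10%. Sohlh1 stands apart, at 2.60% and 18.19%, and the upstream start of Dmrtb1 was over 10% in each.

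Kit, the receptor tyrosine kinase for stem cell factor, had a promoter window at 1.44% of 1532 calls (95% interval 0.9502% to 2.16%) and 1.50% of 1666 calls (1.02% to 2.21%). Its CpG-dense run over the start, 114 CpGs between 75574821 and 75576133 of chromosome 5, was at 0.3552% and 0.4971%. The difference over the promoter window, 0.06457 points (-0.8092 to 0.921), was within counting error. A separate site inside the gene gained methylation. The 1 kb tile from 75578001 to 75579000, centred 3513 bp downstream of the start, was at 20.66% of 547 calls and 70.20% of 614, a gain of 49.54 points (44.36 to 54.26, adjusted Fisher's exact p = 1.82e-64). Of its 22 CpGs, 21 were higher in 60M-GS, 19 of them by at least 20 points. Single CpGs there give the detail: the CpG 3801 bp from the start of Kit was methylated in 0 of 30 calls and 15 of 31, that at 3982 bp in 0 of 39 and 32 of 49, and that at 3996 bp in 0 of 33 and 33 of 47. A cluster of 12 CpGs from 75578788 to 75579050, found when runs of at least 10 CpGs were allowed, gained from 3.82% to 67.4% (63.62 points, 58.14 to 68.36, adjusted Fisher's exact p = 4.63e-79). Of all such runs 10.1% gained. The next tile, from 75579001, gained from 64.92% to 86.41% (21.49 points, adjusted Fisher's exact p = 2.76e-08). With calls divided by CpGs the adjusted Fisher's exact p of these tiles was 5.34e-02 and 1.00, which ends both calls. With at least 10 calls per CpG the second tile differed by 16.21 points and was no longer called.

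Of the other Kit tiles, 4 with smaller differences are given here, none of them called. Upstream, the tile from 75569001 was at 5.04% and 22.91% (17.87 points, 14.83 to 20.94), and the tile before it, from 75568001, was at 42.51% and 59.02%. Nearer the 3′ end of the gene, the tiles from 75640001 and 75641001 differed by -18.32 and -19.97 points. The whole upstream flank stood at 41.40% and 50.17%, while the locus as a whole was at 76.86% and 76.84%. A run of 43 CpGs past the 3′ end of the gene, from 75660195 to 75660796, was at 57.14% and 60.86%.

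Rarg, the gene of retinoic acid receptor gamma, was unmethylated at both of its starts and gained methylation at the 3′ end of the gene. Its upstream start was at 0.361% and 0.5703% and its internal start, 11 kb further on, at 0.6238% and 0.4327%. The 4 CpG-dense runs beside these starts were all under 1% in both tables. At the 3′ end of the annotated span, 2 neighbouring tiles gained methylation. The tile from 102236001 to 102237000 of chromosome 15 was at 10.80% (8.22% to 14.07%) of 435 calls and 71.77% (66.71% to 76.34%) of 333 calls, a gain of 60.97 points (54.94 to 66.21, adjusted Fisher's exact p = 1.38e-68). The tile from 102235001 to 102236000 was at 4.04% and 54.17%, a gain of 50.13 points (45.30 to 54.65, adjusted Fisher's exact p = 1.52e-76). All 31 CpGs of the pair were higher in 60M-GS, 30 of them by at least 20 points.

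These were the only 2 of the called tiles in the 10 loci that were still called with calls divided by CpGs, at adjusted Fisher's exact p values of 5.97e-05 and 2.47e-02. They lie 3565 and 4565 bp upstream of the start of Itgb7, an integrin subunit gene that overlaps the Rarg flank, and so cannot be assigned to Rarg alone. With gaps of up to 100 bp allowed in a run, 31 CpGs from 102235362 to 102236280 formed 1 run, which gained from 7.105% to 61.63%. Of all such runs 11.8% gained. The Rarg locus had 1.20 times as many calls in 5M-GS as in 60M-GS (22296 and 18644), and the part of this depth difference in the result was not tested. It was not particular to Rarg. Promoter windows of the meiotic genes on chromosome 15 also had more calls in 5M-GS: Dmc1 (2003 and 1604), Mei1 (1170 and 1036), Smc1b (1875 and 1537) and Syce3 (1251 and 1036). The level over the Rarg locus was 51.68% and 52.81%.

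Crabp1 encodes a cytoplasmic protein that binds retinoic acid. Its promoter window was at 2.86% of 1504 calls and 3.31% of 1599, a difference of 0.4555 points (-0.7838 to 1.69). Upstream of the start the level was 6.53% and 7.02%, and downstream 0.6403% and 0.444%. Its 2 CpG-dense runs were at 0.78% and 0.4373%, and at 0.2465% and 0.1293%. No tile of the 28 in the locus was called. The locus stood at 66.08% and 64.27%, the lowest difference of the 10 at -1.81 points (-3.07 to -0.546), or -0.4012 points as a mean of CpG levels.

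Stra8, the retinoic acid target needed for entry into meiosis, had a promoter window at 2.91% of 1064 calls (2.06% to 4.11%) and 0.8189% of 1099 calls (0.4314% to 1.55%). The difference of -2.09 points lay mostly upstream of the start, at 5.21% and 1.30%. In the printed stretch, the 2 CpGs nearest to the TACAATGT match, 123 and 110 bp upstream of the Stra8 start, were methylated in 0 of 28 and 0 of 29 calls of 5M-GS, and in 0 of 44 calls each of 60M-GS, and the match itself holds no CpG. The open stretch of Stra8, the distance around the start over which windows of 5 CpGs stayed under 50%, was 3636 bp and 3468 bp wide.

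Away from the promoter, Stra8 held 1 tile that gained and 1 that lost. The tile from 34913001 to 34914000 of chromosome 6, 7448 bp upstream of the Stra8 start and 2669 bp upstream of that of the neighbouring Wdr91, gained from 44.16% to 87.19% (43.03 points, 37.73 to 47.99, adjusted Fisher's exact p = 5.34e-50). All 20 of its CpGs were higher by at least 20 points. The tile from 34942001 to 34943000, past the 3′ end of Stra8, fell from 50.68% to 23.04% (-27.64 points, -33.64 to -21.30, adjusted Fisher's exact p = 3.66e-15), with 12 of 13 CpGs lower, 5 of them by at least 20 points. It is the only loss called in the 10 loci. With calls divided by CpGs neither call held (adjusted Fisher's exact p = 3.25e-01 and 1.00). A run of 28 CpGs between 34921837 and 34922489, just inside the Stra8 gene, was at 8.98% and 14.70%, and the run at the start of Wdr91 at 0.1381% and 0.2296%.

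Sohlh1 was the member whose promoter differed most. Its window was at 2.60% of 883 calls (1.74% to 3.88%) and 18.19% of 907 calls (15.82% to 20.83%), a difference of 15.59 points (12.89 to 18.37, adjusted Fisher's exact p = 6.21e-28). That is below the 20 points required of a call. With calls divided by CpGs the adjusted Fisher's exact p was 1.00, but too few calls are then left for a difference of this size to pass. Of its 34 CpGs, 26 were higher in 60M-GS, 14 of them by at least 20 points, and 0 were lower. Upstream of the start the level was 3.35% and 12.81%, and downstream 1.45% and 29.19%, a difference of 27.75 points (22.52 to 33.21). None of the 25 tiles of the Sohlh1 locus was called. The locus stood at 77.15% and 78.35%, and the gene body at 70.71% and 79.46% (8.74 points, 6.09 to 11.38).

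The methylation of Sohlh1 in 60M-GS was laid out in blocks, which were drawn after the single CpGs had been seen and are a description with no test. From 746 to 606 bp upstream of the start, 6 CpGs were at 6.55% and 24.11%. From 448 to 104 bp upstream, 14 CpGs were at 1.02% (0.3488% to 2.97%) and 3.80% (2.24% to 6.39%). This is the block with the 3 CACGTG E-boxes. Over the start itself, from 16 bp upstream to 289 bp downstream, 13 CpGs were at 1.41% of 355 calls and 29.74% of 306 calls, and all 13 were higher. At the downstream edge, from 499 to 765 bp, 10 CpGs were at 29.05% and 68.21%. The low stretch of Sohlh1 thus reached 669 bp and 290 bp past the start, while its upstream reach was 838 bp at both ages.

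Each of the 3 E-boxes printed for Sohlh1 has 1 CpG at its centre. That in the first, 229 bp upstream of the Sohlh1 start, was methylated in 0 of 25 calls and 0 of 42. The second, 209 bp upstream, gave 0 of 23 and 0 of 38, and the third, 190 bp upstream, 0 of 17 and 1 of 26. Past them towards the start, the CpGs of Sohlh1 at 143 to 104 bp upstream were at 0 in both tables but had only 6 to 13 calls each. The CpG 16 bp upstream of the Sohlh1 start was methylated in 0 of 10 calls and 4 of 8, that 61 bp downstream in 0 of 31 and 12 of 30, and that 251 bp downstream in 0 of 29 and 11 of 27. The CpGs in the E-boxes were thus at or near 0 at both ages, while all of those over the start carried partial methylation in 60M-GS.

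**Figure D2:**
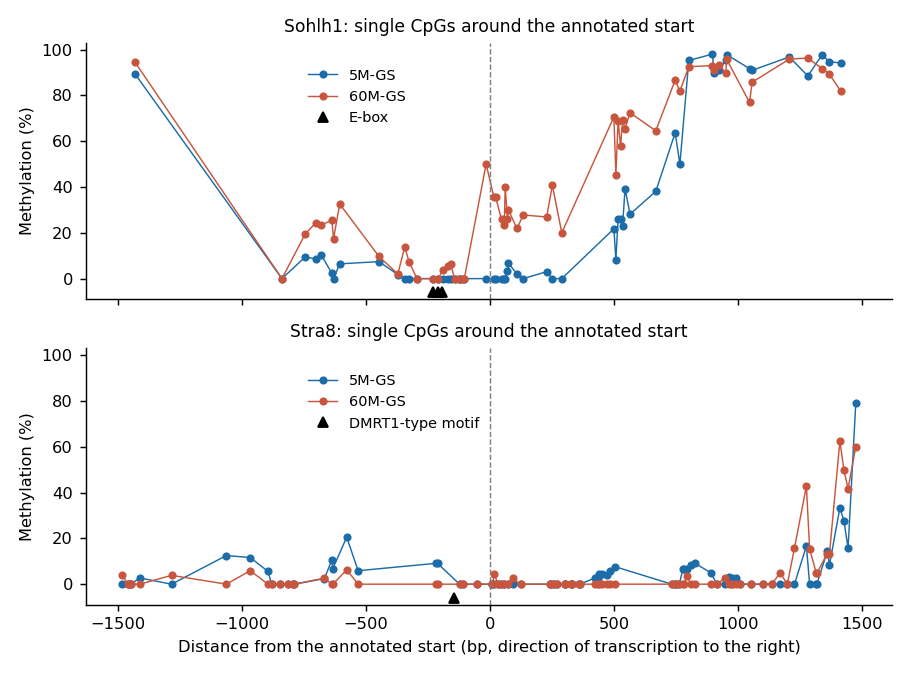
Methylation (percent of calls, vertical axis) of single CpGs of Sohlh1 (top) and Stra8 (bottom) by distance from the annotated start, in 5M-GS (blue) and 60M-GS (red). Triangles mark the 3 CACGTG matches of Sohlh1 and the 1 TACANTGT match of Stra8, and the dashed line marks the start. In Sohlh1 the 60M-GS values leave the floor on both sides of the E-boxes, from 20% to 50% over the start. Stra8 stays near 0 around its start in both tables but rises further downstream. Its run of 28 CpGs centred 1215 bp past the start was at 8.98% and 14.70%.

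CACGTG was found, on either strand since it reads the same on both, in 7.2% of the 32619 RefSeq promoter stretches of this length, and 3 or more matches in 29 of them (0.0889%). The looser CANNTG, which includes CACGTG, was in 72.3% and matched at 5 places in Sohlh1. AGGTCA, a recognition element of nuclear receptors searched on both strands, was in 16.2% and in 3 members: 2 matches in Stra8, 1 in Sohlh1 and 1, on the opposite strand, at the upstream start of Rarg. TACANTGT, also searched on both strands, was in 2.71%, and among the members in Stra8 alone. A match describes the letters and not binding.

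Sohlh2, the partner of Sohlh1 in the same family, was low at both ages. Its window was at 2.04% of 1274 calls and 0.7037% of 1279 (-1.34 points, -2.33 to -0.4372), and its run of 24 CpGs over the start at 0.3509% and 0.8726%. At the downstream shoulder, the tile centred 1456 bp from the start was at 43.55% and 61.24% (17.69 points, 11.08 to 24.09), below the size required. The locus, which overlaps Ccdc169, stood at 72.76% and 73.28%, with 0 of 44 tiles called.

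Neurog3, a basic helix-loop-helix factor of undifferentiated spermatogonia that are about to differentiate, sits in the least methylated of the 10 loci, at 30.98% and 33.48%. Its window was at 1.91% of 1047 calls and 1.07% of 1125, and 3 runs, of 36, 23 and 34 CpGs, were all under 1% in both tables. The first of these runs lies 4277 bp upstream of the start. Next to it on the far side, the tile from 62127001 to 62128000 of chromosome 10 gained from 6.63% (5.08% to 8.62%) of 769 calls to 41.78% (38.20% to 45.46%) of 706 calls, by 35.15 points (31.06 to 39.14, adjusted Fisher's exact p = 1.70e-58). Of its 25 CpGs, 22 were higher, 20 of them by at least 20 points, and 2 were lower. With gaps of up to 100 bp, 24 CpGs from 62127446 to 62128106 formed a run that gained from 4.75% to 51.33%. With calls divided by CpGs the adjusted Fisher's exact p of the tile was 2.01e-01, which ends the call.

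**Figure D3:**
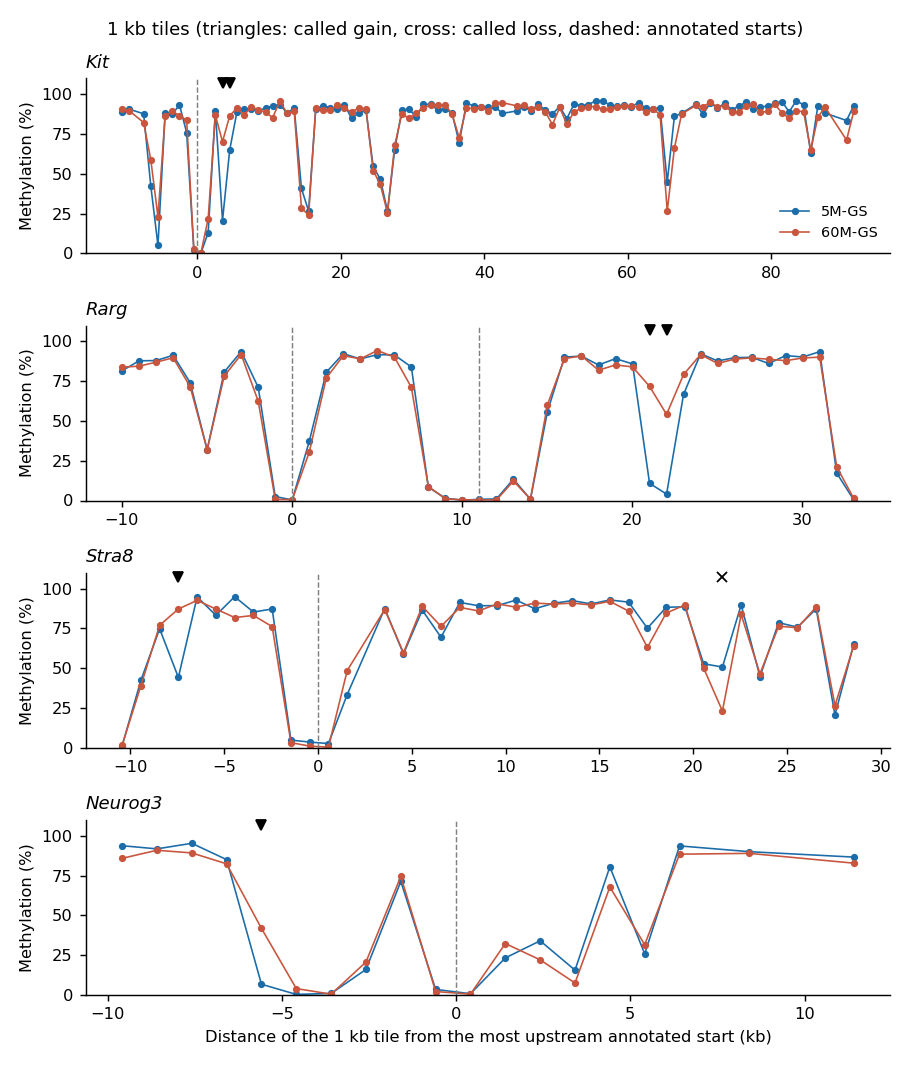
Methylation (percent of calls, vertical axis) of 1 kb tiles across the Kit, Rarg, Stra8 and Neurog3 loci by distance from the most upstream annotated start, in 5M-GS (blue) and 60M-GS (red). Triangles mark tiles that gained, the cross the tile that lost, and dashed lines the starts. The dips at the starts coincide in both tables, and the called tiles lie at other dips, shallower in 60M-GS at the 6 triangles and deeper at the cross.

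Dmrt1 encodes the DM-domain factor that keeps spermatogonia from entering meiosis early. Its start was placed at the CpG-dense end of the gene, at 25505618 of chromosome 19. The window there was at 1.35% of 1702 calls and 1.03% of 1651, and its run of 89 CpGs at 0.8538% and 0.4302%. The body of the gene was methylated at 81.11% and 81.65%, including a run of 23 CpGs deep inside it at 90.71% and 87.15%. The 10 kb past its 3′ end, which hold the start of Dmrt3, were at 8.94% and 9.59%, with 3 runs of 47, 30 and 138 CpGs all under 1%. Near the border between the 2, the last tile wholly inside Dmrt1, from 25603001 to 25604000, gained from 27.89% to 50.74% (22.85 points, 16.59 to 28.83, adjusted Fisher's exact p = 7.42e-11). Of its 19 CpGs, 17 were higher, 11 of them by at least 20 points. This tile lies 7037 bp upstream of the Dmrt3 start, and with calls divided by CpGs its adjusted Fisher's exact p was 1.00. The next tile, from 25604001, spans the border itself and was at 16.58% and 13.42%, not called. Within the low block, the tile from 25607001 was at 0.8942% and 11.39%. The Dmrt1 locus also overlaps Gm5249.

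Dmrtb1, the DM-domain gene also known as Dmrt6, was the other member with a promoter window over 10%. Its downstream start was at 2.02% of 1732 calls and 1.66% of 1682. The window of the upstream start, which overlaps the first, was at 10.48% (8.90% to 12.29%) and 14.89% (12.97% to 17.04%), a difference of 4.42 points (1.78 to 7.08). The outer side was the methylated one: upstream of that start the level was 25.55% and 41.21% (15.66 points, 9.27 to 21.93), and downstream 1.87% and 2.27%. From 250 bp before to 50 bp after the same start, however, the level was 3.54% of 198 calls and 1.55% of 129. The methylation of this window thus lay farther upstream and not at the start itself. The run of 54 CpGs over both starts was at 1.71% and 1.72%, and the low stretch was 2375 bp and 2208 bp wide. A distant run of 20 CpGs, from 107708366 to 107708736 of chromosome 4, was at 91.98% and 91.01%. The locus, which overlaps Gm12899, 1700047F07Rik and LOC115486425, had 0 of 44 tiles called.

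Uchl1, a ubiquitin hydrolase abundant in spermatogonia, had the lowest promoter level of the genes with 1 start, at 0.6339% of 1262 calls and 0.3655% of 1368. Its run of 48 CpGs, shared with the opposing transcript Uchl1os, was at 0.2047% and 0.2893%. Past the 3′ end, the tile from 66690001 was at 2.36% and 17.66% (15.30 points, 12.30 to 18.49), below the size required, and the whole downstream flank at 52.56% and 57.95%. None of its 30 tiles was called.

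Over the 10 loci, 7 of 491 tiles gained (1.43%) and 1 lost (0.2037%). Of all tiles in the genome 3.48% gained and 0.475% lost, and of the tiles within protein-coding genes and their 10 kb flanks 2.07% gained and 0.447% lost. The 7 gains fell in 5 loci: 2 in Kit, 2 in Rarg and 1 each in Stra8, Neurog3 and Dmrt1. By level in 5M-GS, 2 of the 47 tiles under 10% gained (4.26%, against 5.28% in all protein-coding loci), as did 5 of the 84 between 10% and 80% (5.95%, against 9.78%). None of the 360 tiles over 80% was called in either direction. From that level a gain of the size required of a call is impossible, so only losses could have been called. Of the tiles over 80% in all protein-coding loci 0.1227% lost. At so small a share, the absence of a loss among 360 tiles does not show that they are more stable than others. In the classes under 10% and between 10% and 80%, the share of gains in these loci lay below that of protein-coding loci at large. This is a description and not a test.

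**Figure D4:**
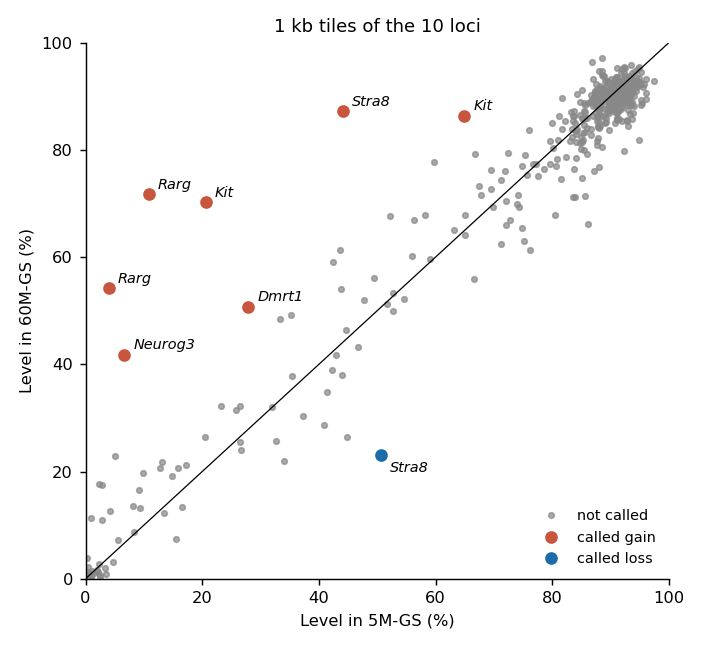
Level of each of the 491 tiles in 60M-GS (vertical axis, percent of calls) against its level in 5M-GS (horizontal axis), with the line of equality. The 7 tiles that gained (red) and the 1 that lost (blue) carry the name of their gene, and the others were not called, most of them lying over 80% at both ages.

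CpG-dense runs, used in place of CpG islands (20 or more CpGs, no gap over 50 bp, a length of 200 bp or more), numbered 22 in 9 of the 10 loci, with none at Sohlh1. Of these, 18 were under 10% in both tables (81.82%), against 81.89% of the 23238 runs in the genome. Those 18 lay between 0.1381% and 1.71% in 5M-GS and between 0.1293% and 1.72% in 60M-GS. The exceptions were the runs named above at the 3′ side of Kit, inside Dmrt1, upstream of Dmrtb1 and in the first part of Stra8. None of the 22 gained or lost, against 5.13% and 0.120% of all runs. The 12 starts lay in 11 low stretches, since those of Dmrtb1 share 1. Of these, 6 were narrower in 60M-GS, 3 wider and 2 of the same width (Crabp1 at 2685 bp and Uchl1 at 1942 bp). The largest narrowing was 379 bp at Sohlh1, followed by 360 bp at Neurog3, and Dmrt1 was wider by 253 bp. Over whole loci 7 of 10 were higher in 60M-GS, by at most 2.49 points (Neurog3). Among these 7, the intervals of Sohlh1, Sohlh2 and Dmrt1 include 0. For low stretches and whole loci the shares over all genes were not computed.

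Another list held 34 genes related to retinoic acid signalling and spermatogonial differentiation. It was broad and included Gfra1, Nanos3, Lhx8 and Figla, so not all of its members are differentiation genes. Of the 34, 33 had a tested window, 42 windows in all. Of these, 1 gained and 1 lost (2.38% each, against 3.43% and 0.307% of all protein-coding windows). At both ages 28 were under 10% (66.67%, against 60.40% of all), and the median difference was near 0. Cyp26c1, one of the enzymes that break down retinoic acid, gained from 31.85% to 78.17% (46.32 points, 42.03 to 50.31, adjusted Fisher's exact p = 3.97e-84). An internal start of Stra6, the vitamin A transporter, fell from 56.26% to 35.32% (-20.94 points, -27.49 to -14.11, adjusted Fisher's exact p = 3.94e-08). With calls divided by CpGs neither was called, at adjusted Fisher's exact p values of 2.08e-01 and 1.00. The 4 genes with the highest 5M-GS levels among those not called were represented by internal starts of Rxra (89.37% and 89.11%) and Rxrg (73.43% and 84.09%), a start of the retinoic acid synthesis gene Aldh1a1 (85.31% and 78.83%) and that of the degradation enzyme Cyp26b1 (84.07% and 87.13%). The other tested starts of Rxra (0.4842% and 0.4488%), Rxrg (14.59% and 13.92%) and Aldh1a1 (6.83% and 11.15%) were far lower.

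Other lists were read in the same way. Of 13 windows of genes of undifferentiated spermatogonia, 12 were under 10% in both tables (92.31%, against 60.40% of all protein-coding windows), with 0 gains and 0 losses against 3.43% and 0.307%. The exception was Nanos2, an RNA-binding protein of stem cells, at 63.62% and 55.11%, while Id4, a repressor of differentiation, was at 3.60% and 6.74%, the GDNF receptor Ret at 1.26% and 0.8604% and the transcription factor Sall4 at 1.11% and 1.04%. Promoter windows of the germ cell genes Ddx4 (5.77% and 4.90%), Dazl (2.94% and 2.58%) and Mael (2.79% and 0.6843%) were low. Of 8 windows of genes imprinted by maternal methylation, 6 were under 10% in both tables (75.00%, against 60.40% of all protein-coding windows). Peg3 was at 1.00% and 0.9368%. The 2 exceptions were starts of Snrpn, at 74.58% and 69.64% and at 41.51% and 55.56%, while another Snrpn start was at 1.90% and 0.354%. Sox9, Wt1 and Amh, genes of testicular support cells, were under 1% in both tables. Their starts were placed at the CpG-dense end of each gene, which need not be the true start. These levels thus may not be promoter levels and do not tell the cell types apart.

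The promoters nearest to Sohlh1 in level, by the straight-line distance over its values in the 2 tables, were those of Dbr1 (2.53% and 17.95%, at 0.2543 points), Tex11 (2.94% and 18.31%, at 0.3565 points) and Mtpn (2.90% and 17.75%, at 0.5318 points). Those nearest to the upstream start of Dmrtb1 were Olfr370 (10.51% and 14.85%), Slc13a5 (10.21% and 14.93%) and Mgmt (10.70% and 14.65%). With 2 tables this likeness is a description.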

How the data were processed

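Bisulfite-converted DNA was made into whole-genome libraries by adaptor tagging after conversion (PBAT), per the labels' protocols. The submitters' processing notes name Bismark 0.10.0 and the build mm10. The authors deposited, per CpG, the counts of methylated and unmethylated calls and the percent the authors computed from these counts, which served here as a check. The 5M-GS table held 468121185 calls (median 21 per CpG) and that of 60M-GS 471693518 (median 22), with 17634196 CpGs at 5 or more calls in both. Read filters and deduplication: not given in the sources used here.

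Calls were summed over regions with at least 4 such CpGs and compared by Fisher's exact test, adjusted by Benjamini-Hochberg across every region of its kind in the genome (numba 0.67.0, scipy 1.17.1). A call needed an adjusted p under 0.05 and a difference of at least 20 points. Intervals (95% Wilson, Newcombe for differences) cover counting error only, since the 2 replicates of each age are pooled. The code was tested on simulated data. Starts came from RefSeq promoters. Genes without an entry, Dmrt1 among them, were placed at whichever end had 2 or more times as many CpGs within 300 bp. Exons, introns and untranslated regions were not assigned here. All members, called tiles (up to 5 per locus), dense runs, overlapping neighbours, called genes of each list with up to 4 others of highest 5M-GS level, and the 3 promoters nearest in level were named by rule. Tiles below the size required and the blocks of Sohlh1 were singled out after their values were seen. Members and lists were chosen with earlier results of these data known. Alternatives are given at the end.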

Additional observations from a re-analysis of the deposited data

How the results depend on the processing

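No paired analysis was possible because each table pools its replicates, and for the same reason no replicate could be left out. The promoter counts of 0 gains and 0 losses held under every alternative run except a minimum difference of 10 points, which gave 1 gain (Sohlh1). For tiles, 7 gains and 1 loss became 2 and 0 with calls divided by CpGs, and 18 and 11 at a minimum difference of 10 points. The gains stayed between 5 and 8 under the other alternatives. Dividing calls by CpGs acts as if each read covered every CpG of the region. Few calls are then left, and only large differences can pass. The single loss became 0 at a minimum of 30 points and with 2 kb tiles, 2 with at least 1 call per CpG or a grid shifted by 500 bp, and 3 with at least 10 calls per CpG. For CpG-dense runs, 0 gains became 1 with runs of at least 10 CpGs (Kit) and 2 with gaps of up to 100 bp (Rarg and Neurog3). Loci higher in 60M-GS numbered 7 to 9 of 10, the highest with the mean of CpG levels, which turned Kit from -0.02098 to 0.6086 points and Stra8 from -0.5696 to 0.5285, and moved Crabp1 from -1.81 to -0.4012 and Dmrtb1 from 2.44 to 1.15. No called tile changed direction under the settings that kept its boundaries. Of the values of the 8 called tiles under those settings, 46 kept the call and 10 lost it, 6 of these with calls divided by CpGs. Depth limits single CpGs: those in the window of Sohlh1 had 6 to 56 calls each.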

Other observations

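Promoters of meiotic genes, which act after the differentiation genes, gave 19 windows of 18 genes. Of these, 12 were under 10% in both tables (63.16%, against 60.40% of all protein-coding windows), and 0 gained and 0 lost (3.43% and 0.307% of all). In 60M-GS 14 of the 19 were higher, against 12602 of 21159 of all, with median differences of 3.49 and 0.1832 points. The difference between the list and other genes was not tested. Mei1, needed for meiotic recombination, was at 88.29% and 88.03%. Msh4, a protein of crossover sites, was at 24.12% and 31.71%. Sycp2 and Syce2, components of the synaptonemal complex, were at 11.01% and 16.66% and at 10.97% and 15.11%. Tex11, an X-linked meiotic gene, was at 2.94% and 18.31%, close to Sohlh1 at 2.60% and 18.19%.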
